A study of Mus musculus with 40 samples.

Results

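Small RNA of total mouse blood was compared between 12 and 13.5 months of age, with 10 libraries at each age, 20 of the 40 libraries sequenced at 4 ages. The mice were male C57B/6J animals without any transgene, housed singly, and the study drew blood from the orbital sinus of the same animals every 6 weeks. The study took the 13.5-month blood 1 day after a water maze memory test, and its text puts the 12-month blood draw both ahead of all testing and following an initial training. The labels do not say whether any library came from mice kept without training, so maze experience, the earlier blood draw and age cannot be told apart. The count table also names the columns of the 2 ages in different ways, so ageing and a change of library series cannot be told apart either. Of the 1915 mature microRNAs in the deposited count table, 105 had more than 100 reads in at least 20 of the 40 libraries. The rows of miR-486a and miR-486b hold identical counts for each strand and were counted once, which left 103 microRNAs.

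MicroRNAs are short RNAs cut from hairpin precursors, one strand of which (5p or 3p, after the arm it comes from) is usually kept. Bases 2 to 8 of the kept strand, the seed, pair with messenger RNAs, and microRNAs that share a seed form a family with overlapping targets. Whole blood holds the microRNAs of red cells, white cells and platelets together with those free in plasma, and red-cell microRNAs dominate its libraries.

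The sequences shown here are those of the microRNAs with the largest differences between the ages and of the relatives they are compared with. They were matched by name to RefSeq (GRCm38.p6), which gave a sequence for 90 of the 103, and are written 5′ to 3′ with the seed in capitals. The miR-181 family has one seed and differs outside it.
miR-181a-5p: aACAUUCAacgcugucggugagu
miR-181b-5p: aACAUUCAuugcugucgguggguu
miR-181c-5p: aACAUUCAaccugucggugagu
miR-181d-5p: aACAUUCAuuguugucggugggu
Among let-7 names, let-7j differs from let-7i-5p by 1 base over 22, inside the seed.
let-7i-5p: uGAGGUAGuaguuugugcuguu
let-7j: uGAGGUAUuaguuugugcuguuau
let-7f-5p: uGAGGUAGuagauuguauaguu
Pairs of the miR-15/16, miR-130 and miR-103 and miR-107 families share their seeds, and miR-15b and miR-130b were measured on both strands.
miR-15b-5p: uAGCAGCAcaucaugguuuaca
miR-16-5p: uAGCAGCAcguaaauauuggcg
miR-15b-3p: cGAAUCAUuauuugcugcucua
miR-130a-3p: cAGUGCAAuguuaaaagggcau
miR-130b-3p: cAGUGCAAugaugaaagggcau
miR-130b-5p: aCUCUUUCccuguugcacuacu
miR-103-3p: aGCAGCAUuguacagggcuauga
miR-107-3p: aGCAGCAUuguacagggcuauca
The microRNAs with the largest falls follow, with miR-142a-5p beside miR-3969 because the 2 sequences are close.
miR-3969: cCCUAAAGuagaaaucacua
miR-142a-5p: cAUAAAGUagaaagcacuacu
miR-19b-3p: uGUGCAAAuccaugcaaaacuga
miR-144-5p: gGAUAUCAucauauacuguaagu
miR-451a: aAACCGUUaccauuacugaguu
miR-148a-3p: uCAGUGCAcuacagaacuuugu
miR-26b-5p: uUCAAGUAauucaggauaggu
miR-215-5p: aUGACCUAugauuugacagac

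Libraries held 3277160 to 10854800 counts at 12 months and 2755630 to 11563100 at 13.5 months, with miR-486 counted once. The red-cell microRNA miR-486-5p took 86.7% of all counts on average. The share outside it averaged 13.47% ± 2.68 at 12 and 13.11% ± 2.73 at 13.5 months (SD, n = 10 each), and the spread among libraries exceeded this difference (p = 0.766, two-sided permutation test). Of the muscle list, miR-1a-3p, miR-206-3p and miR-208a-3p had no read in the 20 libraries, whereas miR-133a-3p had 27 to 233 counts at 12 months and 2 to 151 at 13.5 months. Of the liver list, miR-122-5p reached at most 3 counts, whereas miR-192-5p, which other tissues also make, had 2879 to 15268 and miR-194-5p had 104 to 551. One 12-month library stood apart in several microRNAs, being the lowest of its age in miR-3969 and the highest in miR-182-5p and miR-148a-3p, and their values are given with and without it. On the first 2 principal components, which held 43.4% and 21.9% of the variance, the ages differed (two-sided permutation tests, adjusted p = 0.00236 for each over 4 components) while their ranges overlapped on both. The largest weight on each component was that of miR-3969 (0.34 and 0.37), and components without it were not tested.

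**Figure D1:**
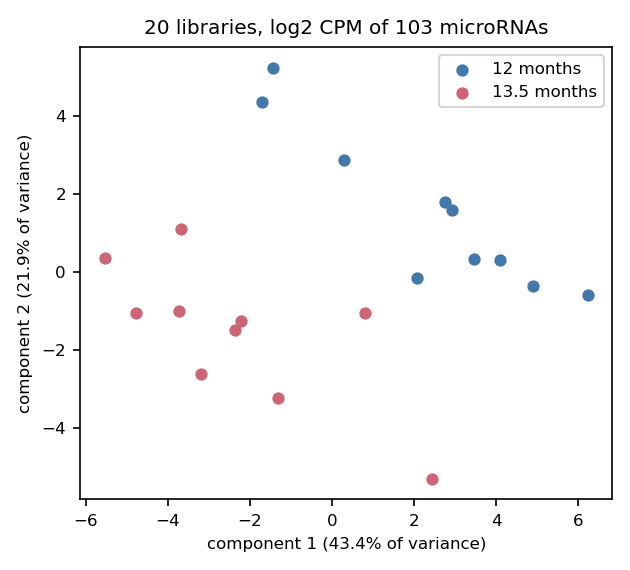
Scores of the 20 libraries on the first 2 principal components of the log2 CPM of 103 microRNAs, in arbitrary units, with 1 point per library and the colour giving the age. The 13.5-month libraries lie toward lower values on both axes, with ranges that overlap those of the 12-month libraries on each axis.

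To see which circulating microRNAs differed, the counts of the 103 were fitted with edgeR (quasi-likelihood test, TMM scaling, Benjamini-Hochberg adjustment, threshold 0.05). In total 38 of 103 differed (36.9%), 19 higher (18.4%) and 19 lower (18.4%) at 13.5 months. miR-181a-5p, miR-181b-5p and miR-181d-5p of the miR-181 family, let-7i-5p, miR-15b-5p, the miR-130 pair, the pair of miR-103-3p and miR-107-3p and the miR-378 pair rose. miR-3969, miR-19b-3p, the red-cell microRNAs miR-144-5p and miR-451a, and miR-148a-3p fell, while the red-cell microRNA miR-486a-5p was not called. Of the white-cell microRNAs, miR-223-3p, miR-21a-5p and miR-142a-5p fell and miR-150-5p rose. These calls were lost in 6, 8, 7 and 9 of 14 alternative fits. Among the 38, the absolute log2 fold change had a median of 0.57 and exceeded 1 for 5. The median log2 fold change of all 103 was 0.04. Levels of the 2 ages did not overlap for 1 of 103 (0.971%), miR-19b-3p. For 17 of the 103, all of them among the 38, all 10 libraries of 13.5 months lay on the same side of the 12-month mean. The calls were made on the same values, so this agreement is partly built in. Scaling by library totals alone called 20 (13 higher and 7 lower), and scaling by totals outside miR-486-5p called 33 (22 higher and 11 lower). Without one 13.5-month library of 6534574 counts, 25 were called (15 higher and 10 lower). The microRNAs not called had log2 fold changes from -0.58 to 0.49, with a median SE of 0.16.

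**Figure D2:**
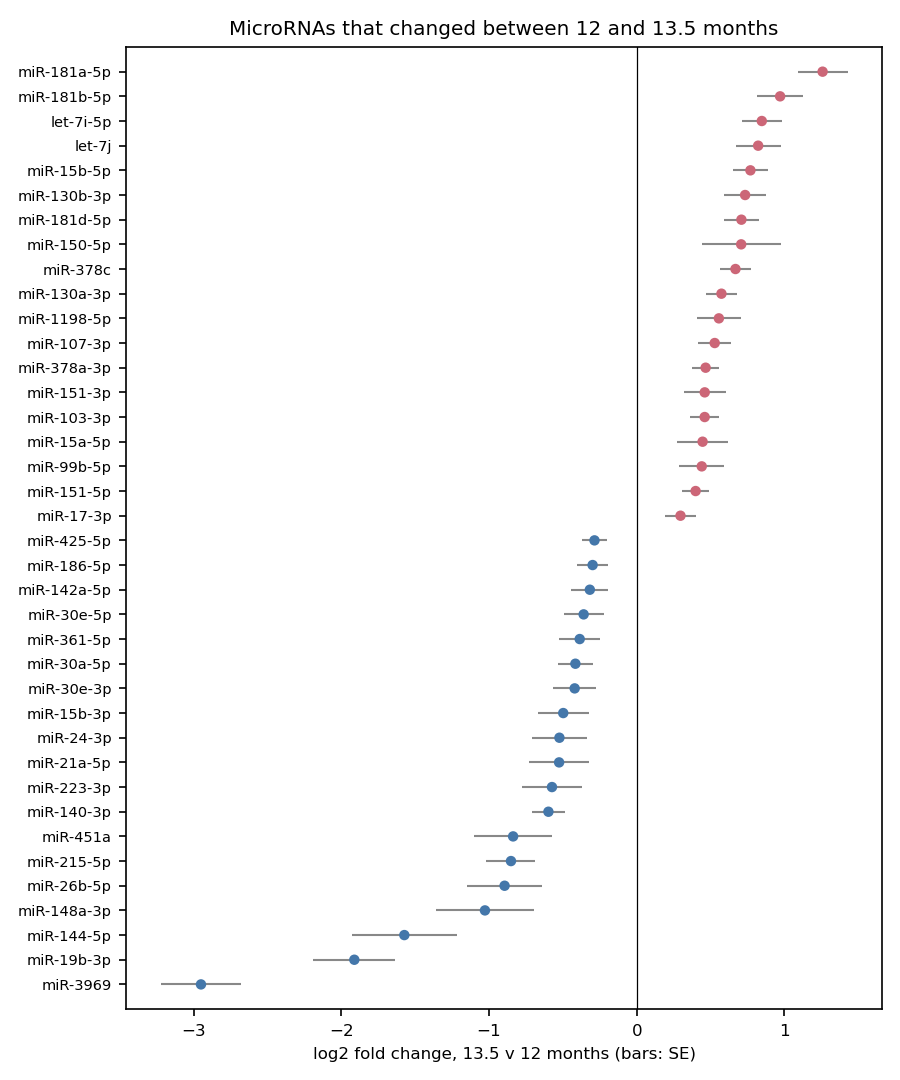
Log2 fold change at 13.5 v 12 months (horizontal axis; bars are standard errors) of the 38 microRNAs at an adjusted p under 0.05, in order of size, with rises in red and falls in blue. The changes run from 1.26 for miR-181a-5p to -2.95 for miR-3969, and most lie within 1 of 0.

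The miR-181 family, known for its part in lymphocyte development and abundant in brain, gave the largest rise. miR-181a-5p had 7.55, 7.78 and 8.39 log2 CPM (counts scaled to library size with TMM factors; lowest, median and highest of 10 libraries) at 12 months. At 13.5 months the same values were 8.32, 9.03 and 9.83. A single library of each age lay within the range of the other age. This was a log2 fold change of 1.26 (SE 0.17, adjusted p = 1.01e-05, edgeR), or a 2.39-fold rise on the CPM scale. miR-181b-5p rose by 0.97 (SE 0.16) and miR-181d-5p by 0.71 (SE 0.12), whereas miR-181c-5p had a log2 fold change of -0.07 (SE 0.17, adjusted p = 0.766). Thus 3 of the 4 members rose, against 18.4% of all microRNAs, and the family median of 0.84 stood beside 0.04 for all. The fourth, miR-181c-5p, has the printed sequence of miR-181a-5p without the base G11, so these 2 are close as well. Set at their first base without a gap, they differ at 11 of the 22 bases compared, because the bases after G11 are shifted. miR-181b-5p and miR-181d-5p differ by 1 base of 23 (C12U, counted from the 5′ end of miR-181b-5p), so they are a near-identical pair whose counts may not be separate measurements. miR-181a-5p and miR-181b-5p come from hairpin pairs on chromosome 1 (137966455 to 137966718, in an exon of the long non-coding RNA A430106G13Rik) and on chromosome 2 (38852735 to 38853918, opposite to an intron of Nr6a1), and reads of one mature sequence cannot be assigned to one pair. miR-181d-5p lies on chromosome 8 (84178716 to 84178787, in an intron of Nanos3). Scaled over all 40 libraries, the mean level of miR-181a-5p was 7.58 ± 0.27 log2 CPM at 12, 8.75 ± 0.45 at 13.5, 7.56 ± 0.26 at 15 and 7.87 ± 0.21 at 16.5 months (SD, n = 10 each). The high level was thus that of the 13.5-month libraries among the 4 ages.

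let-7 microRNAs, which promote differentiation and repress growth genes, split by member. let-7i-5p rose from 8.96, 9.09 and 9.36 log2 CPM (lowest, median, highest) at 12 months to 9.27, 9.94 and 10.63 at 13.5 months, and all 10 later libraries lay above the 12-month mean. Its log2 fold change was 0.85 (SE 0.13, adjusted p = 4.61e-05, edgeR). let-7j rose by 0.82 (SE 0.15, adjusted p = 0.000202). The single base by which it departs from let-7i-5p (G8U) sits at the end of the seed, and its counts were a near-constant part of those of let-7i-5p, with a median of 9.66% at 12 months, 9.60% at 13.5, 9.82% at 15 and 10.6% at 16.5 months. Whether these are reads of a separate gene was not tested. Of the 8 let-7 microRNAs tested, 2 rose and 6 did not pass the test, a share of rises near the 18.4% of all 103. let-7f-5p had the lowest log2 fold change among the 6, at -0.38 (SE 0.17, adjusted p = 0.0869), and let-7a-5p had -0.20 (SE 0.13), while let-7b-5p and let-7c-5p had 0.18 and 0.19. let-7i lies on chromosome 10 (122985640 to 122985724, minus strand).

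The miR-15/16 family, repressors of cell cycle and survival genes, rose in 2 of 3 members, against 18.4% of all 103, though 1 of these 2 calls was close to the threshold. miR-15b-5p had 8.28, 8.58 and 8.86 log2 CPM at 12 months and 8.66, 9.38 and 9.74 at 13.5 months, and 1 library of 13.5 months fell within the 12-month range. It rose by 0.77 on the log2 scale (SE 0.12, adjusted p = 2.75e-05). miR-15a-5p rose by 0.45 (SE 0.17, adjusted p = 0.0491), close to the threshold, and lost its call in 10 of 14 alternative fits, where its adjusted p ran from 5.5e-06 to 0.299. miR-16-5p, abundant in red cells and encoded beside miR-15b within an intron of Smc4 on chromosome 3 (69009772 to 69009996 for both hairpins), had a log2 fold change of 0.07 (SE 0.15, adjusted p = 0.757). The same mature sequence is also encoded on chromosome 14, in an exon of Dleu2, so its reads cannot be assigned to one hairpin.

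The other strand of the miR-15b hairpin went the opposite way. miR-15b-3p fell by 0.50 on the log2 scale (SE 0.17, adjusted p = 0.032), with counts of 105 to 261 per library at 12 months and 52 to 168 at 13.5 months. The ratio of 5p to 3p counts within a library does not depend on scaling between libraries. On a log2 scale with 1 added to each count, the ratio went from 3.95 ± 0.20 at 12 months to 5.24 ± 0.62 at 13.5 months (SD, n = 10 each). The ratio differed between the ages (two-sided permutation test, p = 2e-05, the smallest that 100000 resamples can give, adjusted p = 0.0002 over 10 hairpins). Alone among these 10 hairpins, miR-15b had ranges of the 2 ages that did not overlap, at 3.63 to 4.24 and 4.32 to 6.24. The median ratio was 15.7 at 12 months and 41.6 at 13.5 months, then 13.4 at 15 and 11.9 at 16.5 months.

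For miR-130b the balance of strands moved the other way, toward 3p. The log2 ratio of 5p to 3p counts went from -0.60 ± 0.37 at 12 months to -1.54 ± 0.31 at 13.5 months (SD, n = 10 each; difference -0.95, two-sided permutation test, adjusted p = 0.0003, 10 of 10 libraries on one side of the 12-month mean). The ranges of this ratio overlapped, at -1.33 to -0.25 at 12 months and -2.13 to -1.10 at 13.5 months. miR-130b-3p itself, known for its part in fat cell differentiation, rose by 0.73 (SE 0.14, adjusted p = 0.000274), while miR-130b-5p had -0.21 (SE 0.18, adjusted p = 0.375). Its family partner miR-130a-3p, which differs by 2 bases of 22, rose by 0.57 (SE 0.11, adjusted p = 0.000179). Levels of miR-130a-3p ran from 5.23 to 5.87 log2 CPM at 12 months and from 5.84 to 6.45 at 13.5 months, with 1 library of each age inside the range of the other. Of the 10 hairpins with both strands among the 103, miR-15b and miR-130b passed the test and the other 8 did not, the nearest being miR-423 (difference 0.52, adjusted p = 0.0557) and miR-30a (difference -0.41, adjusted p = 0.0848). For miR-130b, too, the ratio of -0.61 ± 0.33 at 15 months and that of -0.50 ± 0.57 at 16.5 months (SD, n = 10 each) were nearer to that at 12 months.

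**Figure D3:**
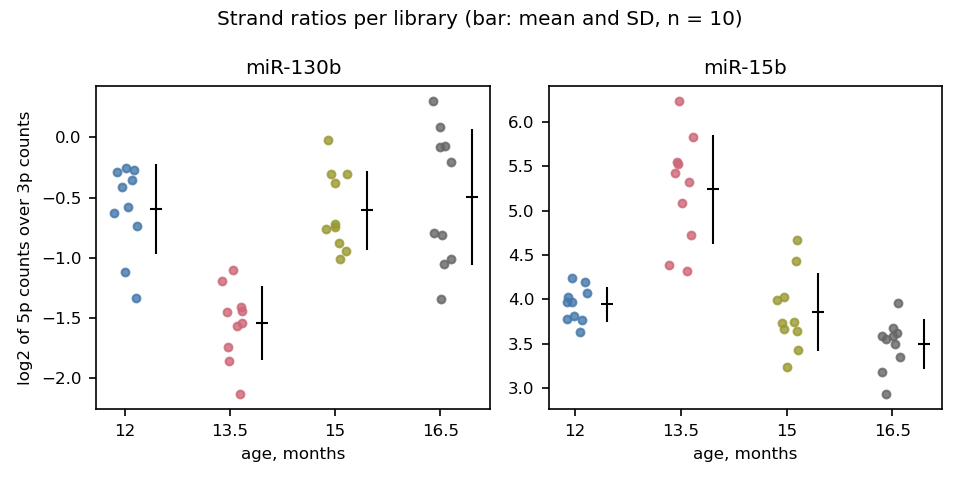
Log2 of 5p counts over 3p counts (1 added to each count) per library at the 4 ages in months for miR-130b and miR-15b, the 2 hairpins whose ratio differed between 12 and 13.5 months, with bars for the mean and SD of 10 libraries. The 13.5-month libraries are low for miR-130b (mean -1.54) and high for miR-15b (mean 5.24) relative to the other 3 ages.

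Further pairs rose together. miR-103-3p and miR-107-3p, which come from introns of the pantothenate kinase genes Pank3, Pank2 and Pank1 and are known to act on insulin signalling, both rose. The changes were 0.46 (SE 0.10, adjusted p = 0.000922) for miR-103-3p and 0.53 (SE 0.11, adjusted p = 0.000598) for miR-107-3p. Their sequences differ by 1 base of 23 (G22C, counted from the 5′ end of miR-103-3p), so their counts may not be separate measurements either. miR-378a-3p rose by 0.47 (SE 0.09) and miR-378c by 0.67 (SE 0.11, adjusted p = 4.61e-05), with all 10 libraries of 13.5 months above the 12-month mean for miR-378c. RefSeq gave no sequence for miR-378a-3p, so the pair could not be compared by sequence. Whether their counts are separate measurements was not tested. Both strands of miR-151 rose, miR-151-5p by 0.40 (SE 0.09, adjusted p = 0.00167) and miR-151-3p by 0.46 (SE 0.14, adjusted p = 0.0179), with a strand ratio that did not pass the test (difference -0.07, adjusted p = 0.793). miR-1198-5p rose by 0.56 (SE 0.15) and miR-99b-5p of the miR-10/99 family by 0.44 (SE 0.15, adjusted p = 0.032), while miR-10a-5p, miR-10b-5p and miR-99a-5p of that family did not pass the test.

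The largest fall was that of miR-3969, a microRNA encoded on chromosome 5 (87595902 to 87595993, minus strand) outside other genes. Counts were 171 to 902 per library at 12 months, with a median of 690.5, and 38 to 95 at 13.5 months, with a median of 58.5. Levels were 4.17, 6.69 and 6.93 log2 CPM (lowest, median, highest) at 12 months and 2.89, 3.44 and 4.56 at 13.5 months. One 12-month library stood inside the later range and the other 9 above it. Across all 20 libraries the change was -2.95 on the log2 scale (SE 0.27, adjusted p = 2.8e-08, edgeR). Without that library it was -3.08 (SE 0.19, adjusted p = 2.51e-11), and 30 microRNAs were then called in all (17 higher and 13 lower).

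The sequence of miR-3969, shifted by 1 base, matches miR-142a-5p over 19 bases with 2 differences, a pair found by comparing all 90 sequences after the values of miR-3969 had been seen. miR-142a-5p, a microRNA of all white cells, is far more abundant, with 28171 to 63059 counts per library at 12 months. Counts of miR-3969 were 1.60% to 1.80% of those of miR-142a-5p in 9 of the 12-month libraries and 0.271% in the remaining one. At 13.5 months they were 0.146% to 0.393%, at 15 months 0.0117% to 0.165%, and at 16.5 months 5.90% to 6.63% while the counts themselves ran from 195 to 3258. The 2 counts thus kept a narrow ratio within 9 libraries of 12 months and within 16.5 months, with a different ratio at each age. The part of miR-142a-5p reads in the values of miR-3969 was not tested, and the sequencing run of each library is not given in the sources used here.

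miR-19b-3p, of the growth-promoting miR-17-92 cluster, had 4.62, 5.56 and 6.50 log2 CPM at 12 months and 2.55, 3.60 and 4.49 at 13.5 months, so that every later library lay below every earlier one. Its counts were 137 to 565 and 27 to 236 per library. On the log2 scale the change was -1.91 (SE 0.28, adjusted p = 2.2e-05, edgeR), or 3.76-fold lower on the CPM scale. It is encoded both in that cluster, in an exon of Mir17hg on chromosome 14 (115043671 to 115044506 for the 4 hairpins with tested strands), and in a cluster on chromosome X. Other strands from the chromosome 14 cluster had other values. miR-17-3p rose by 0.30 (SE 0.10, adjusted p = 0.032, lost in 9 of 14 alternative fits), whereas miR-92a-3p had 0.15 (SE 0.30, adjusted p = 0.738) and miR-18a-3p had -0.02.

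**Figure D4:**
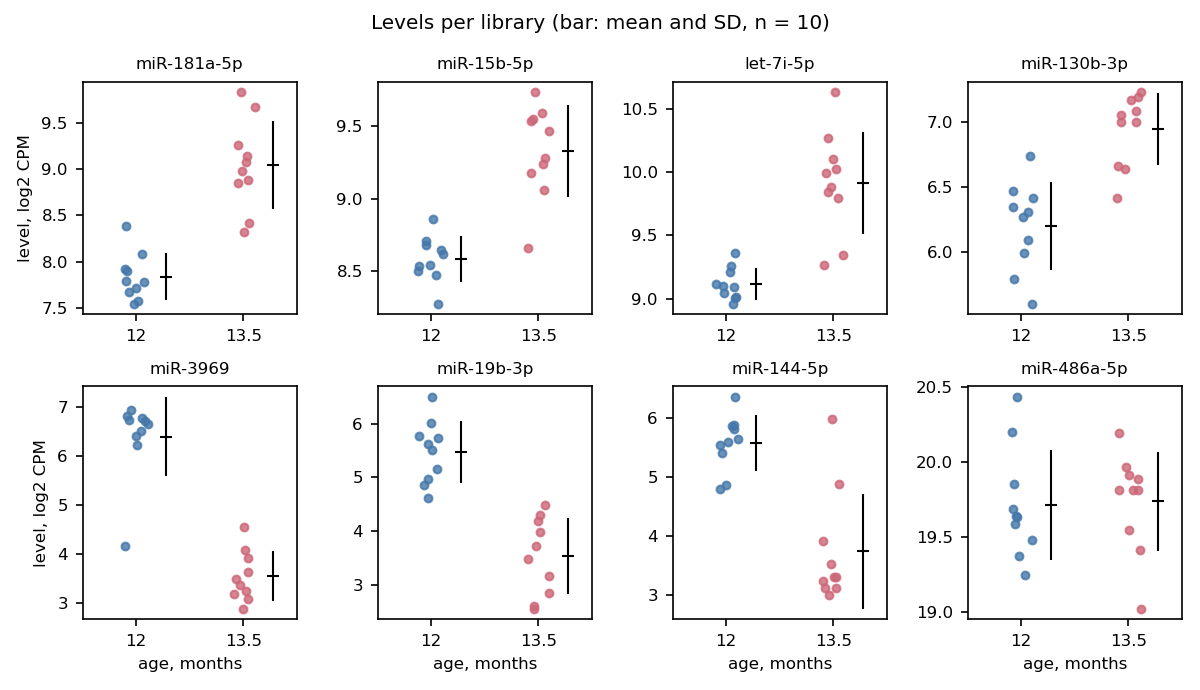
Level in log2 CPM (vertical axis, not from 0) of 8 microRNAs per library at 12 and 13.5 months, with bars for the mean and SD of 10 libraries. The 2 ages are fully apart for miR-19b-3p alone, 1 library of 12 months lies among those of 13.5 months for miR-3969, and the ages overlap widely for miR-486a-5p.

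Red-cell microRNAs did not move as a group. In bulk blood, fewer cells of a type and less RNA per cell cannot be told apart. miR-144-5p and miR-451a, which are cut from one transcript under control of the erythroid factor GATA1 on chromosome 11 (78073005 to 78073241, plus strand), both fell. miR-144-5p had 4.79, 5.62 and 6.36 log2 CPM at 12 months and 2.999, 3.30 and 5.99 at 13.5 months, with 9 of 10 later libraries below the 12-month mean. Its log2 fold change was -1.57 (SE 0.35, adjusted p = 0.00125). miR-451a, processed without Dicer and one of the most abundant red-cell microRNAs, had counts of 37102 to 207090 at 12 months and 24491 to 85829 at 13.5 months. It changed by -0.84 on the log2 scale (SE 0.26, adjusted p = 0.0182). miR-486a-5p had a log2 fold change of 0.01 (SE 0.16, adjusted p = 0.96) and miR-486a-3p one of -0.29 (SE 0.49). Of 4 red-cell microRNAs tested, 2 fell and 2 did not pass the test, where 18.4% of all 103 fell. With 2 hidden factors in the fit, miR-486a-5p was also called lower (log2 fold change -0.26, adjusted p = 0.0344).

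White-cell lists moved in both directions. The myeloid microRNAs miR-223-3p, which restrains neutrophil production, and miR-21a-5p both fell, 2 of 2 tested, where 18.4% of all 103 fell. miR-223-3p fell by 0.57 (SE 0.20, adjusted p = 0.032), and the fall of miR-21a-5p was close to the threshold (fell by 0.53, SE 0.21, adjusted p = 0.0491). miR-142a-5p fell by 0.32 (SE 0.12, adjusted p = 0.0491). These 3 calls were lost in 6, 8 and 7 of 14 alternative fits. Among 4 lymphoid microRNAs, where 18.4% of all 103 rose, miR-181a-5p and miR-150-5p rose and miR-342-3p and miR-146a-5p did not pass the test, at 0.40 (SE 0.20, adjusted p = 0.131) for miR-342-3p and 0.28 (SE 0.23, adjusted p = 0.375) for miR-146a-5p. miR-150-5p, typical of mature lymphocytes, had 7.63, 8.98 and 9.65 log2 CPM at 12 months and 7.83, 9.63 and 10.42 at 13.5 months, and the ages overlapped widely. Its change of 0.71 (SE 0.27, adjusted p = 0.0442) did not pass in 9 of 14 alternative fits. Summed counts of the lymphoid list, not scaled to library size, ran from 2765 to 13238 per library at 12 months and from 3950 to 15801 at 13.5 months, and those of the myeloid list from 1348 to 5065 and from 725 to 3333. Scaled with TMM factors, the lymphoid sums were 513, 835 and 1159 CPM (lowest, median, highest) at 12 months and 947, 1560 and 1974 at 13.5 months. The myeloid sums were 216, 427 and 786 CPM at 12 months and 218, 292 and 452 at 13.5 months. These sums were not tested. Of the platelet and endothelial list, miR-24-3p fell by 0.52 (SE 0.19, adjusted p = 0.0351) and miR-222-3p did not pass the test (0.26, SE 0.13). Of the liver list 0 of 2 and of the brain list 0 of 1 tested passed.

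**Figure D5:**
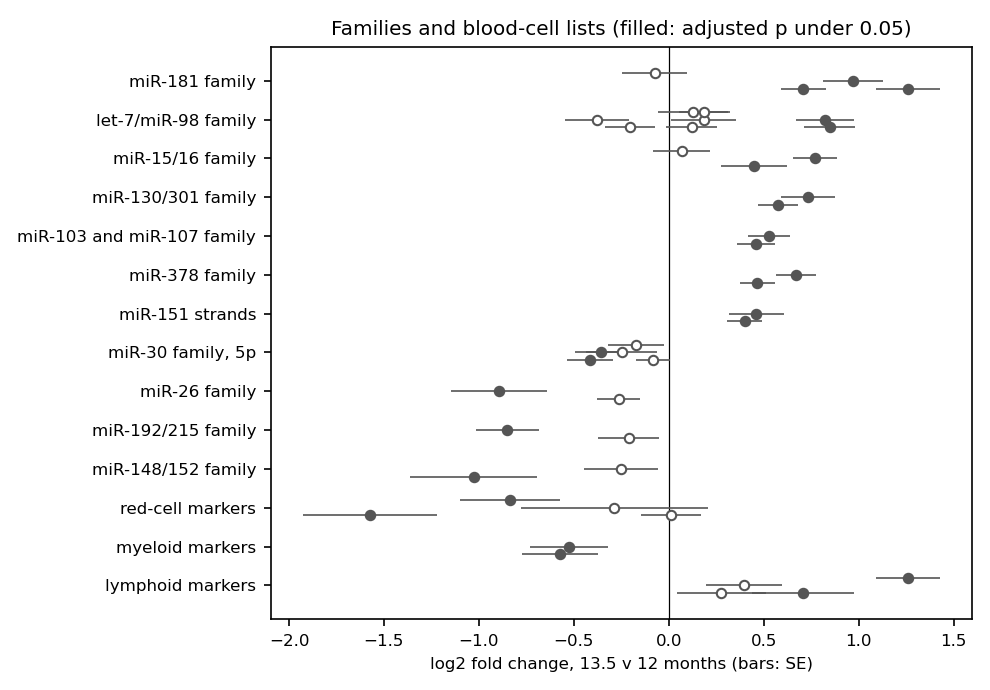
Log2 fold change at 13.5 v 12 months (horizontal axis; bars are standard errors) of the tested members of 11 groups of related microRNAs and 3 blood-cell lists, with filled points for an adjusted p under 0.05. In the plotted groups, called members lie on one side of 0, as in the miR-181 family (3 of 4 higher) and the myeloid list (2 of 2 lower). Some groups hold only 1 called member and cannot show otherwise, and the study's 7 (2 higher, 1 lower) are not plotted.

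The remaining falls came mostly from families in which 1 member passed. miR-148a-3p, which is high in B cells and liver, fell from 6.83, 7.81 and 9.56 log2 CPM to 5.97, 6.68 and 7.99, a log2 fold change of -1.03 (SE 0.33, adjusted p = 0.0221). The highest of these belonged to the 12-month library that was low in miR-3969, and without it the change was -0.71 (SE 0.28, adjusted p = 0.0615). miR-148b-3p had -0.25 (SE 0.19, adjusted p = 0.354). miR-26b-5p, from an intron of Ctdsp1 on chromosome 1, fell by 0.89 (SE 0.25, adjusted p = 0.00967), while miR-26a-5p, 2 bases different over 21, had -0.27 (SE 0.11, adjusted p = 0.0727). miR-215-5p, a gut and liver microRNA induced by p53, fell by 0.85 (SE 0.17, adjusted p = 0.000298), and its seed partner miR-192-5p had -0.21 (SE 0.16, adjusted p = 0.343). miR-140-3p, from an exon of Wwp2 and known from cartilage, fell from 11.26, 11.44 and 11.73 log2 CPM to 10.30, 10.86 and 11.29 (log2 fold change -0.60, SE 0.11, adjusted p = 0.000179). One library of each age lay inside the other range.

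Among 5 miR-30 5p strands, miR-30a-5p fell by 0.42 (SE 0.12, adjusted p = 0.0106), miR-30e-5p fell by 0.36 (SE 0.14, adjusted p = 0.0438), and the family median of -0.25 stood beside 0.04 for all 103. The sequences of miR-30a-5p and miR-30e-5p differ by 1 base of 22 (C13U, counted from the 5′ end of miR-30a-5p), so their counts may not be separate measurements. miR-30e-3p fell by 0.42 (SE 0.15), whereas miR-30a-3p, 1 base different over 22, had 0.02 (SE 0.13). miR-425-5p fell by 0.29 (SE 0.09, adjusted p = 0.0141), and miR-191-5p from the same cluster on chromosome 9 had 0.25 (SE 0.11, adjusted p = 0.0721). miR-361-5p and miR-186-5p fell by 0.39 and 0.30. The calls of miR-30a-5p, miR-425-5p and miR-30e-3p were each lost in 4 of 14 alternative fits, with adjusted p up to 0.145, 0.20 and 0.169. Those of miR-30e-5p and miR-186-5p were each lost in 6, with adjusted p up to 0.313 and 0.311. That of miR-361-5p was lost in 5, with adjusted p up to 0.214.

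Several abundant or clustered families held no call. miR-92a-3p and miR-25-3p, which share a seed, had log2 fold changes of 0.15 each (SE 0.30 and 0.09), and the miR-106b, miR-93 and miR-25 hairpins in Mcm7 gave 0 calls among 5 strands. miR-29a-3p (0.30, SE 0.19), miR-146b-5p (-0.23, SE 0.24), miR-93-5p (0.31, SE 0.15) and miR-182-5p (-0.58, SE 0.47) did not pass the test. Without the 12-month library that was highest in miR-182-5p, its log2 fold change was 0.25 (SE 0.30, adjusted p = 0.542), the opposite sign.

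Of the 7 microRNAs that the study chose by their relation to memory scores in mice, a choice made on these samples, miR-181a-5p and miR-130b-3p rose and miR-148a-3p fell. let-7b-5p (0.18, SE 0.17), miR-146a-5p, miR-192-5p and miR-30a-3p did not pass the test. Of the 3 whose targets the study took further, miR-181a-5p was higher, miR-148a-3p lower and miR-146a-5p not called.

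Across the 90 microRNAs with a sequence, median GC content was 45.8% for those that rose, 40.9% for those that fell and 50% for those not called. Over these microRNAs, which share libraries and are not independent, the log2 fold change and GC content had r = 0.327, and over all 103 the log2 fold change and mean level had r = 0.096. Rises and falls were equally divided between arms, with 10 and 10 of 55 5p strands and 7 and 7 of 41 3p strands. Whether GC content has a part in the changes was not tested.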

How the data were processed

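Blood small RNA libraries (TruSeq Small RNA kit, single-end reads) were trimmed, mapped to mm10 and quantified against miRBase with miRDeep2 by the authors, without mismatches and with counts of several genomic locations summed. The submitters' processing notes name FastQC 0.11.5. The authors deposited raw counts per mature microRNA, and a normalized table that was not used. Columns name the age and not the labels' replicate number, and each was used as 1 library of that age. No column of per-sample values was left out. Libraries were treated as independent although the study followed the same animals, and p-values measure the spread between these libraries.

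Counts of 103 microRNAs were fitted with edgeR 4.0.16 (R 4.3.3), using TMM factors (0.644 to 1.52), glmQLFit and glmQLFTest over the 20 libraries. Levels are log2 CPM with a prior count of 2. Strand ratios, shares and components were compared by two-sided permutation tests with 100000 resamples. Counting error is included in the standard errors, and reads without molecular identifiers are not independent molecules. No pair of libraries was a duplicate (smallest chi-square per degree of freedom 72.5). Scripts were tested on simulated data. Hairpin positions are from RefSeq (GRCm38.p6) and host genes from GENCODE M21 (GRCm38).

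Named microRNAs were the 10 largest rises and falls among those called, the 5 most abundant, the study's 7, hairpins with a called strand ratio, and up to 4 of each list with the smallest p. Outside this rule, miR-1198-5p, miR-17-3p, miR-186-5p, miR-361-5p, let-7c-5p and miR-18a-3p, and the percentages of miR-3969 and let-7j, were added after values were seen. Members and lists were chosen with earlier results of these data known. Alternatives were other scalings, DESeq2 1.42.0, limma 3.58.1 with voom, other filters, hidden factors and left-out libraries.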

Additional observations from a re-analysis of the deposited data

Results flagged for a closer look

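In 142 groups of 10 libraries tested, 6 held a library far from the rest by Dixon's ratio, where chance alone gives about 1 in 20 groups. At 13.5 months one library was low for both miR-150-5p (7.83 log2 CPM, nearest 9.07) and miR-151-3p (9.18, nearest 9.79). A different 13.5-month library was low for both let-7f-5p (7.65, nearest 8.56) and let-7a-5p (7.71, nearest 8.56). At 12 months a single library was both low for miR-3969 (4.17, nearest 6.23) and high for miR-182-5p (9.21, nearest 7.01), and it also held the highest level of miR-148a-3p at that age (9.56).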

How the results depend on the processing

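The number of microRNAs called was 38 in the reported fit and 33 to 52 over 13 of the 14 other settings that kept all 20 libraries. Library totals alone called 20, and the cause was not tested. The sets called differed more than their numbers. Of the 38 calls, 36 were shared with DESeq2, 37 with voom, 28 with 1 hidden factor and 26 with 2. A filter of more than 1 read tested 343 microRNAs and shared 24, and no filter tested 956 and shared 20. Leaving out each library in turn gave 25 to 41 calls, and 23 of the 38 calls were kept in all 20 such fits. The other 15 (miR-148a-3p, miR-151-3p, miR-30e-3p, miR-99b-5p, miR-15b-3p, miR-24-3p, miR-223-3p, miR-17-3p, miR-361-5p, miR-186-5p, miR-150-5p, miR-30e-5p, miR-142a-5p, miR-21a-5p and miR-15a-5p) reached adjusted p-values of 0.0542 to 0.175, the last of them lost in 16 of 20. Fewest were called without one 13.5-month library of 6534574 counts, the next fewest being 28. Of the 38 calls, 16 passed in every one of the 14 settings and 22 were lost in at least 1. No call reversed its direction. miR-486a-5p, not called in the reported fit, reversed to a called fall with 2 hidden factors (log2 fold change -0.26, adjusted p = 0.0344). The 2 strand ratios passed with 10 added to each count and with a rank statistic. A block by the number that column names share between ages, added after the data were seen, gave 34 calls, 33 of them among the 38. It lost miR-99b-5p (adjusted p = 0.0558), miR-17-3p (0.0793), miR-150-5p (0.0886), miR-15a-5p (0.115) and miR-21a-5p (0.137) and called miR-342-3p (0.0277). All 4 ages share the same 10 numbers, and the sources used here do not state whether a number marks an animal. Deviations of same-numbered libraries had r from -0.73 to 0.57, 3 of 10 over 0.1. Because microRNAs vary together within a library, these r values cannot decide it. A block by the labels' replicate numbers could not be run because the columns carry none. No library lay beyond a connectivity Z of 2.5, so that alternative was not run. Low counts limit miR-3969, miR-19b-3p and miR-144-5p at 13.5 months.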
